A study of Mus musculus with 3 samples.

Results

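Interferon-stimulated genes were followed as a set of 40 mouse genes, of which 38 were among the 32285 features of the count tables. Mx1 and Mx2 were not analysed here. The genes were chosen by name as known targets of interferons, with earlier results of these data known. They fall into a type I list of 28 (26 of them measured) and a gamma-type list of 12. The tissue was mouse hind paw from the K/BxN serum transfer model, where autoantibodies in the injected serum cause an arthritis that subsides with time. The stromal day 5 library held sorted CD45- cells, the non-leukocytes of the paw, 5 days after 200 µl of serum was injected into the peritoneum. The stromal day 0 library held the same sort at steady state. The myeloid day 9 library held CD45+CD11b+Ly6G- cells, which are leukocytes with a myeloid surface marker and without a neutrophil marker, 9 days after serum. The labels do not give the strain, age or number of mice, and they state that the paws were freed of skin, muscles and tendons and then digested with collagenase IV and DNase.

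Interferons are secreted proteins that cells release on sensing viral or misplaced nucleic acid, or on activation of lymphocytes. Type I interferons signal through Ifnar1 and Ifnar2 to a factor complex that includes STAT2 and IRF9 and binds the interferon-stimulated response element, or ISRE. Interferon gamma, made mainly by NK and T cells, signals through Ifngr1 and Ifngr2 and acts on genes through the gamma-activated site, or GAS, and many genes answer both kinds. The gamma-type list holds genes that are strong gamma targets, but several of them are also induced by type I interferon or by NF-kB, so the list names are a grouping and not a readout of the ligand.

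After filters of at least 500 genes, at least 1000 UMIs (unique molecular identifiers, each standing for 1 captured RNA molecule) and at most 10% mitochondrial UMIs, 11172 of 11900 barcodes at day 5, 7368 of 7740 at day 0 and 5945 of 7795 in the myeloid library were kept. The deposited tables held 122224428, 77842586 and 69430907 UMIs in that order. Cells were clustered without the listed interferon genes and named from markers, with "like" understood in every name. The stromal classes were Saa3-led fibroblasts (1384 cells at day 5, 31 at day 0), other Pdgfra fibroblasts (7098 and 5282, in 14 clusters), tenocytes marked by Coch or Angptl7 (1114 and 671), Ibsp osteoblasts (679 and 584) and endothelial cells (99 and 122). All 7 fibroblast markers were detected in other Pdgfra fibroblasts of both days, and 8 of 8 tenocyte markers at day 5 and 7 of 8 at day 0 in tenocytes, although tendons had been removed. All 7 osteoblast markers were detected in osteoblasts of both days, and no leukocyte marker reached detection in these 3 classes. There was 1 library per group, so no test was run, library and day cannot be told apart, and all 95% intervals cover counting error only. Levels are CPM, the UMIs of a gene per 1000000 UMIs of the class, and at least 1.5-fold, with at least 20 UMIs over both groups, is used as a size and not as a call of significance.

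The control DNA just before the start of these genes is shown for 7 members that carry differences described further on. They are 3 gamma-type genes that were higher at day 5 in several classes, and 4 of the type I genes that were higher in tenocytes or osteoblasts. Each sequence is the 250 bases before the annotated start, read 5′ to 3′ on the gene's strand, from RefSeq on GRCm38.p6. Capitals mark every match to GAAA, any 2 bases and GAAA again, used here as the ISRE, or to TTC, any 3 bases and GAA, used here as the GAS, on either strand, and a run of capitals can hold matches that overlap. Irf1 lies at chr11:53769764-53770013 on the plus strand, Igtp at chr11:58199306-58199555 plus, Cxcl10 at chr5:92348890-92349139 minus, Isg15 at chr4:156200819-156201068 minus, Ifit1 at chr19:34640639-34640888 plus, Ifit3 at chr19:34583279-34583528 plus and Bst2 at chr8:71537473-71537722 minus.
Irf1: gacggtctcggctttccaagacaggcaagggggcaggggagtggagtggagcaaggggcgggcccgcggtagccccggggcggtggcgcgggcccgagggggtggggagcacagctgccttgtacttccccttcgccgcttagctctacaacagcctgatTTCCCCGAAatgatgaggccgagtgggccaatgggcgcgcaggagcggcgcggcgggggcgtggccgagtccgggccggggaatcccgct
Igtp: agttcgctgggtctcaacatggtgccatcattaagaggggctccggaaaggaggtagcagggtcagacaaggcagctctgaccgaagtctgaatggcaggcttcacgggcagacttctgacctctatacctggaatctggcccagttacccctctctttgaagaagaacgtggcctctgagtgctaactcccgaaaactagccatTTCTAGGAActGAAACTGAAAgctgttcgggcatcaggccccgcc
Cxcl10: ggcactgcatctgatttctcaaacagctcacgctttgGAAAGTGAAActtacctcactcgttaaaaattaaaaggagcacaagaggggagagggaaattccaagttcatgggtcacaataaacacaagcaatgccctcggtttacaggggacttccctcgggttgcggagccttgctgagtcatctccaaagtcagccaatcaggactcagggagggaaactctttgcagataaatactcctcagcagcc
Isg15: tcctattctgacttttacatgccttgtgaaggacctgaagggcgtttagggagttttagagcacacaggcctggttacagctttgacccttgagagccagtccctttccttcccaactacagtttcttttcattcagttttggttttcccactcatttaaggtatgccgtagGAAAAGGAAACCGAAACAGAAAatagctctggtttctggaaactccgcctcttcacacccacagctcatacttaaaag
Ifit1: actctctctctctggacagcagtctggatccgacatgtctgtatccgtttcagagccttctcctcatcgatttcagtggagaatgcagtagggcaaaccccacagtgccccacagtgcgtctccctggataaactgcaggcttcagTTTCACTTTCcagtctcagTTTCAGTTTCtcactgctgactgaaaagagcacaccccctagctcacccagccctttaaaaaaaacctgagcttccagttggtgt
Ifit3: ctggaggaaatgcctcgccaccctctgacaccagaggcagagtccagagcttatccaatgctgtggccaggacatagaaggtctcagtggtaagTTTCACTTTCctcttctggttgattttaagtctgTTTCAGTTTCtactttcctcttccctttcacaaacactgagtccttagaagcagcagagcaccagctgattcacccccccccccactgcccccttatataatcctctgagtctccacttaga
Bst2: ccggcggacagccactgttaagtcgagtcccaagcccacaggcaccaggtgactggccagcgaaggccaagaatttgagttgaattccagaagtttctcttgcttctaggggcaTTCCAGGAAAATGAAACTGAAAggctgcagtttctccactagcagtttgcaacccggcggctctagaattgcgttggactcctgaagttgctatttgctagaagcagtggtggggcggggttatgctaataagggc

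The Irf1 sequence held 1 GAS and no ISRE, with 81 bases between the end of the match and the start, and distances that follow are counted the same way. Igtp held a GAS at 36 and an ISRE at 24 bases before the start, next to each other. Cxcl10 held 1 ISRE, 203 bases before the start. Isg15 held 3 overlapping ISRE matches that ended 68, 62 and 56 bases before the start, and Ifit1 and Ifit3 held 2 each on the minus strand, at 94 and 75 and at 146 and 112 bases. In Bst2 the capitals join 1 GAS match and 2 ISRE matches that overlap. Promoters of 300 bases (250 before and 50 after the start) could be matched for 31 of the 40 members. An ISRE was in 18 of these 31 (58.1%), among them 11 of 20 type I members and 7 of 11 gamma-type members, against 3.99% of 27025 genes with a promoter in the table. A GAS was in 10 (32.3%), namely 5 of 20 type I members and 5 of 11 gamma-type members, against 9.55% of all genes. Both motifs were present in 6 members and neither in 9. Type I members higher in tenocytes but not printed above were Ifit2, Oasl2, Irf7, Irf9 and Usp18. Of these, Ifit2, Oasl2, Irf7 and Irf9 held no ISRE in the window, and Usp18 had no promoter to search. A match describes letters in this window and does not show that a factor binds there.

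Many members are neighbours in the genome. Of the 38 measured members, 20 lay in 8 groups with gaps of at most 1000000 bases on mm10. Chromosome 3 holds Gbp5, Gbp7, Gbp3 and Gbp2 between 142493978 and 142638008, chromosome 19 holds Ifit2, Ifit3 and Ifit1 between 34550694 and 34650009, and chromosome 5 holds Cxcl9 and Cxcl10 between 92321347 and 92348889. The remaining groups were Oasl2 with Oasl1, Oas2 with Oas3 and Oas1a, Irgm1 with Ifi47, Rsad2 with Cmpk2, and Ifitm3 with Irf7. Reads shared by near-identical relatives (Ifit3 and Ifit3b, Ifit1 and Ifit1bl1, the Oas1, Gbp and immunity-related GTPase families) could be left out of the counts or put to the wrong gene. Values of these genes are therefore less certain.

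Other Pdgfra fibroblasts, the bulk of the stroma, had higher levels of several gamma-type genes at day 5, while no type I gene was 1.5-fold higher. Of 12 gamma-type members, 5 were at least 1.5-fold higher (Irf1, Igtp, Ifi47, Cxcl9 and Cxcl10) and none lower. Of 23 type I members with enough UMIs, none was higher and 1, Oasl1, was lower. Over all 15173 genes tested, 9.54% were that much higher and 6.91% lower. The median log2 ratio was 0.28 for the gamma-type list, 0.062 for the type I list and 0.012 for all genes.

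Irf1, a transcription factor that switches on other interferon targets, had 127 CPM in day 5 cells (124 to 129) and 79.9 CPM in day 0 cells (77.6 to 82.3), which gives a ratio of 1.58 (1.53 to 1.64). Its gene spans 53770014 to 53778374 on chromosome 11 of mm10. The chemokine Cxcl10, which draws T and NK cells through CXCR3, had 47.3 CPM in day 5 and 31.3 CPM in day 0 cells, a ratio of 1.51 (1.43 to 1.60). The intervals of the days did not overlap for either gene. Igtp and Ifi47 encode immunity-related GTPases, which attack membranes around intracellular microbes in mice. Igtp had 9.40 CPM at day 5 and 6.09 CPM at day 0 (1.54, 1.35 to 1.76), and Ifi47 had 7.91 and 4.88 CPM (1.62, 1.40 to 1.88). Cxcl9, the partner chemokine of Cxcl10, was sparse, with 83 UMIs at day 5 and 31 at day 0 (2.14, 1.40 to 3.35). Summed over the 12 genes, the gamma-type level was 288 CPM at day 5 and 211 CPM at day 0, a ratio of 1.37 (1.34 to 1.40).

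The remaining gamma-type members stayed within 1.5-fold in other Pdgfra fibroblasts, with ratios between 0.886 for Gbp3 and 1.25 for Irgm1. Gbp2, a guanylate-binding GTPase that acts on vacuoles of intracellular microbes, had 29.6 CPM at day 5 and 26.9 CPM at day 0 (1.10, 1.03 to 1.18). Irf8, a factor of the myeloid lineage, had 122 and 83 UMIs.

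No type I member of these fibroblasts was 1.5-fold higher at day 5, but several were higher by less, with intervals above 1. Ifitm3, a membrane protein that blocks virus entry from endosomes, held most of the type I UMIs, with 1845 CPM at day 5 and 2160 CPM at day 0 (0.854, 0.848 to 0.861). Ifi27, a mitochondrial protein, had 189 and 203 CPM (0.931, 0.908 to 0.955). These set the type I sum, which was 2349 CPM at day 5 and 2645 CPM at day 0, a ratio of 0.888 (0.882 to 0.894). The type I genes nearest to the 1.5-fold size were Oasl2, a relative of the oligoadenylate synthetases, at 1.46 (1.29 to 1.65), the RNA-binding translation block Ifit3 at 1.40 (1.28 to 1.53) and the virus tether Bst2 at 1.37 (1.30 to 1.45). The ubiquitin-like protein Isg15 followed at 1.31 (1.19 to 1.43), with 17.9 CPM at day 5 and 13.7 CPM at day 0. Igtp and Cxcl10 of the gamma-type list passed 1.5-fold by little, so the split between the lists depends in part on that size. Oasl1, which restrains translation of Irf7, had 16 UMIs at day 5 and 20 at day 0, a ratio of 0.640 whose interval of 0.310 to 1.30 includes 1. Oas1a, Oas2 and Oas3, which make the oligoadenylates that activate RNase L, had between 2 and 6 UMIs each over both days here and reached 20 UMIs in none of the stromal classes compared by day. The other type I members with enough UMIs had ratios between 0.838 for Zbp1 and 1.28 for Ifi44, with the RNA sensors Ifih1 (which encodes MDA5) at 0.878 and Ddx58 (which encodes RIG-I) at 0.949.

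**Figure D1:**
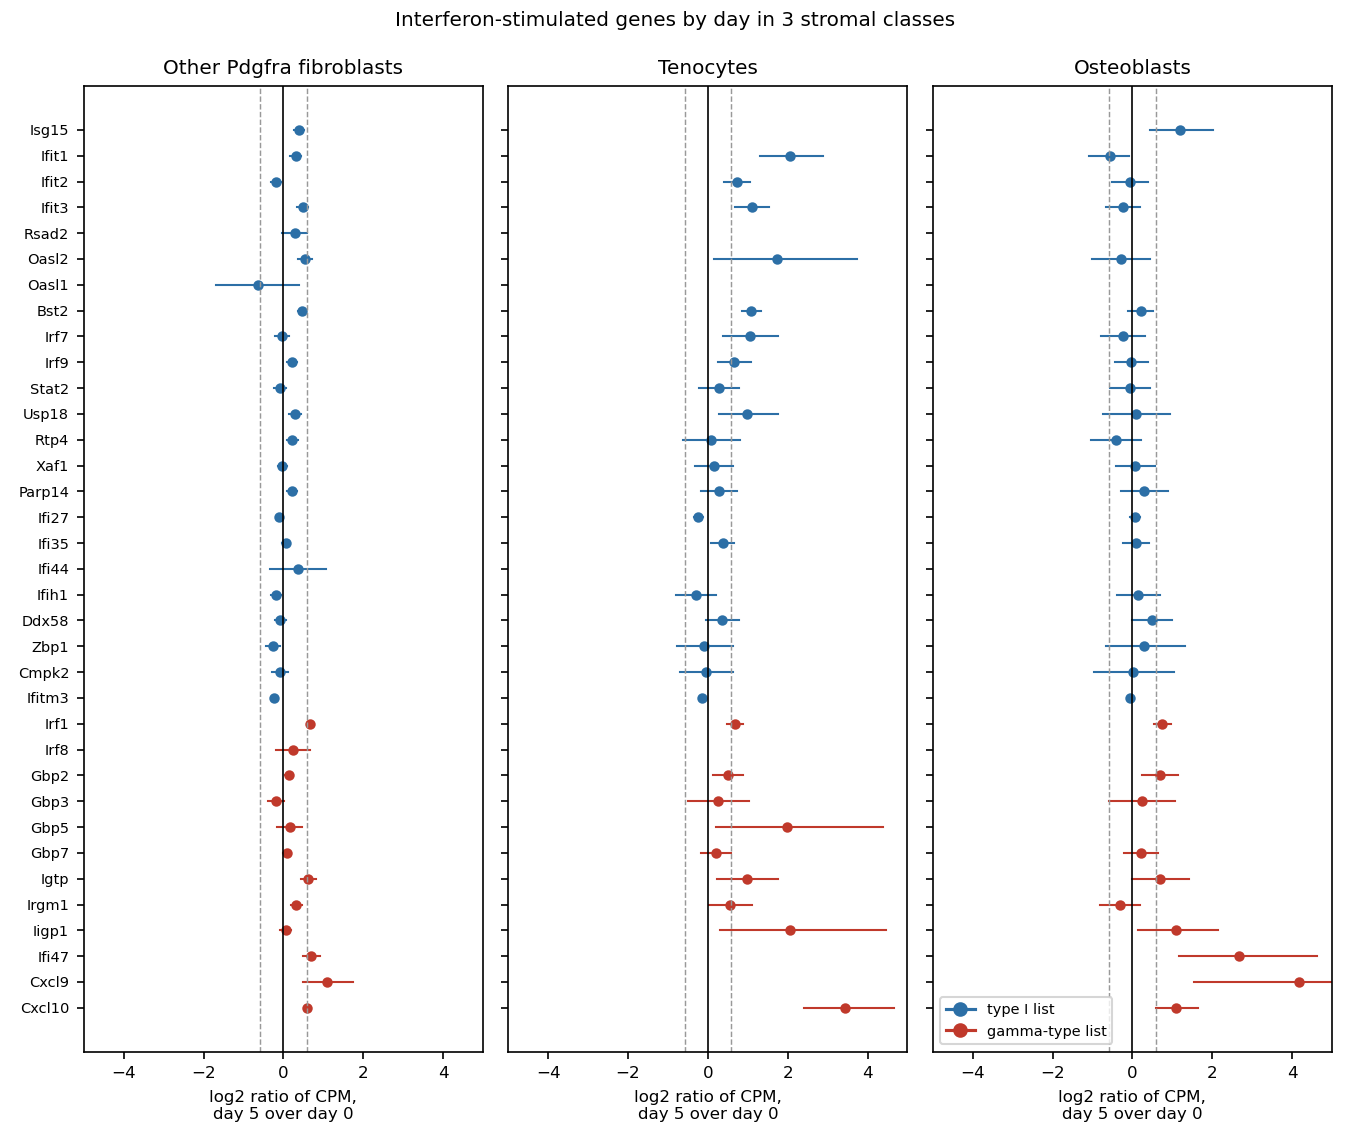
Each point is the log2 ratio of CPM, day 5 over day 0, for 1 interferon-stimulated gene in other Pdgfra fibroblasts, tenocytes and osteoblasts, with its 95% counting interval and the 1.5-fold size marked; the upper end for Cxcl9 in osteoblasts lies beyond the axis. Irf1, Igtp and Cxcl10 lie past 1.5-fold on the higher side in all 3 panels, while type I genes pass it mainly in tenocytes.

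The direction was shared by most clusters of these fibroblasts. In the 13 clusters that held 50 or more cells per library, the summed gamma-type level was higher at day 5 in 13 of 13, with ratios between 1.07 and 1.83 and a median of 1.35. The type I sum was higher in 5 of 13, with ratios between 0.762 and 1.11. Irf1 was higher in 13 of 13 (1.37 to 3.35), Igtp and Oasl2 in 12 of 13, and Cxcl10 in 10 of 13 (0.708 to 18.7). The clusters share libraries and are not replicates. Without Irf1, the gamma-type sum was higher in 11 of 13 with a median ratio of 1.19, and without Ifitm3 and Ifi27 the type I sum was higher in 10 of 13 with a median of 1.09; both subsets were chosen after the values were seen.

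Levels also differed between clusters. Cluster 7, whose leading genes included Atf3, Rrad, Il6 and Irf1 itself, had the highest Irf1 of the 13 on both days, with 432 CPM on day 5 and 274 CPM on day 0, and also the highest Cxcl10, at 140 and 94.8 CPM. Atf3 is a stress gene that tissue digestion can induce, and its part in the Irf1 level was not tested. In cluster 5 Cxcl10 had 121 UMIs at day 5 and 5 at day 0. In cluster 11, by contrast, Cxcl10 was lower at day 5, with 14.1 CPM against 19.9 CPM at day 0 (0.708, 0.452 to 1.07). In other Pdgfra fibroblasts 6 neutrophil markers summed to 25.5 CPM at day 5, where 765 of 852 UMIs of S100a8 lay in 1 cell, and to 0.161 CPM at day 0. The 5 leukocyte markers summed to 1.46 and 0.538 CPM. Leaving out the cells with leukocyte UMIs, 0.535% of cells at day 5 and 0.151% at day 0, left the count of higher members within 1.5 times.

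**Figure D2:**
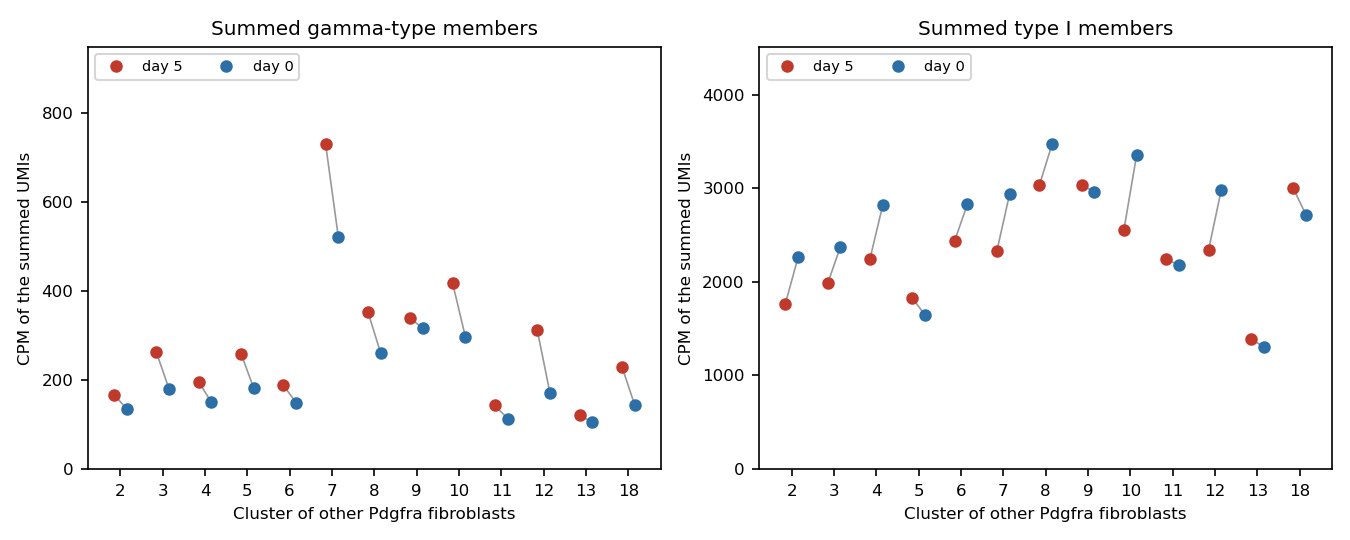
Summed CPM of the gamma-type and of the type I list in each of the 13 clusters of other Pdgfra fibroblasts with at least 50 cells per library, day 5 left of day 0 and joined by a line. The gamma-type sum is higher at day 5 in all 13 clusters and highest in cluster 7, at 730 and 522 CPM, while the type I sum is higher in 5.

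In tenocytes members of both lists were higher at day 5. Of 19 type I members with enough UMIs, 8 were at least 1.5-fold higher, and of 9 gamma-type members 5 were, with none lower in either list. Over all 12049 genes tested in tenocytes, 9.49% were that much higher and 7.31% lower, with a median log2 ratio of 0.018, against 0.36 for the type I list and 0.68 for the gamma-type list. The type I genes were Ifit1, Ifit2, Ifit3, Oasl2, Bst2, Irf7, Irf9 and Usp18, and the gamma-type genes Irf1, Gbp5, Igtp, Iigp1 and Cxcl10.

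Bst2, which holds budding viruses at the cell surface, was at 59.4 CPM in day 5 tenocytes and 28.1 CPM in day 0 tenocytes (2.12, 1.80 to 2.50). Ifit3 counted 198 UMIs at day 5 against 61 at day 0 (2.15, 1.61 to 2.91), and Ifit2, of the same family, 273 against 110 (1.64, 1.31 to 2.07). Ifit1, which binds viral RNA caps, had 106 and 17 UMIs (4.13, 2.46 to 7.36), of which 34 at day 5 lay in a single cell. Regulators of the response were higher as well. Irf7, the factor that amplifies type I interferon output, had a ratio of 2.07 (1.30 to 3.39), Irf9, the DNA-binding part of the type I complex, 1.57 (1.19 to 2.10), and Usp18, a protease that removes Isg15 and damps Ifnar2, 1.99 (1.21 to 3.38). Oasl2 rested on 20 and 4 UMIs. Isg15 itself had 11 UMIs at day 5 and 7 at day 0 in tenocytes, a level of about 1 CPM on both days.

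Among gamma-type genes of tenocytes, Irf1 had 67.6 CPM in day 5 and 42.1 CPM in day 0 cells (1.60, 1.40 to 1.85) and Igtp had 6.01 and 3.07 CPM (1.96, 1.18 to 3.38). Cxcl10 had 130 UMIs in 30 cells at day 5 and 8 UMIs in 7 cells at day 0, a ratio of 10.8 (5.30 to 25.5), with 23 of the day 5 UMIs in 1 cell. Gbp5 (18 and 3 UMIs) and Iigp1 (19 and 3 UMIs), a GTPase of the same family as Igtp, were 3.98-fold and 4.20-fold higher on few molecules. The gamma-type sum was 139 CPM at day 5 and 84.9 CPM at day 0 (1.63, 1.48 to 1.80), and the type I sum, which Ifitm3 again dominated, 1595 and 1675 CPM. With the cells of highest doublet scores removed, 7 in place of 13 members were at least 1.5-fold higher, the log2 ratio of Cxcl10 was 1.80 in place of 3.43, and that of Usp18 was −0.034. Red cell markers had a sum over 4 genes of 1723 CPM at day 5 and 11.3 CPM at day 0 in this class. None of the 4 genes reached detection on either day, which takes 20 CPM and UMIs in 10% of cells. The sum therefore does not stand for the class as a whole. The part of red cell RNA in these differences was not tested. Leukocyte markers were at 0.873 and 0.585 CPM.

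In osteoblasts the members that were higher at day 5 were mostly gamma-type genes. Of 10 gamma-type members with enough UMIs, 7 were at least 1.5-fold higher at day 5, and of 20 type I members 1 was, with none lower, beside 7.79% higher and 5.36% lower of 12091 genes. The median log2 ratio was 0.72 for the gamma-type list, 0.045 for the type I list and 0.022 for all genes. Irf1 had 75.1 CPM in day 5 osteoblasts and 44.6 CPM in day 0 osteoblasts (1.68, 1.44 to 1.97), and Gbp2 had 19.0 and 11.8 CPM (1.61, 1.18 to 2.19). Igtp had 53 UMIs at day 5 and 27 at day 0 (1.61, 0.996 to 2.67). For Gbp2, 16 of the 129 day 5 UMIs lay in 1 cell.

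Single cells held much of the signal of the other higher members of osteoblasts. Cxcl10 counted 115 UMIs at day 5 against 44 at day 0 (2.15, 1.5 to 3.11), with 34 and 18 of them in 1 cell each. Cxcl9 had 22 UMIs in 5 cells at day 5, 10 of them in 1 cell, and 1 UMI at day 0 (18.1, 2.92 to 746). Ifi47 had 31 and 4 UMIs (6.37, 2.25 to 24.8), and Iigp1 34 and 13 UMIs (2.15, 1.11 to 4.44). Isg15, the type I member that was higher, had 56 and 20 UMIs (2.30, 1.36 to 4.05), of which 15 at day 5 lay in 1 cell. Taking the mean of each cell's CPM, its log2 ratio was 0.094. With the highest doublet scores removed, 4 members were at least 1.5-fold higher in osteoblasts and the log2 ratio of Cxcl10 was 0.020. The gamma-type sum was 167 CPM at day 5 and 104 CPM at day 0 (1.61, 1.46 to 1.78).

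Across other Pdgfra fibroblasts, tenocytes and osteoblasts, 3 members were at least 1.5-fold higher in all 3 classes, namely Irf1, Igtp and Cxcl10, all of the gamma-type list. For Cxcl10 this did not hold in osteoblasts with the highest doublet scores removed, where its level was similar on both days. The interval of Igtp in osteoblasts included 1. In other Pdgfra fibroblasts Igtp and Cxcl10 passed 1.5-fold by little. Of the other gamma-type members 3 were higher in 2 classes, 2 in 1 class and 4 in none. Of the 26 measured type I members, 9 were higher in 1 class and 17 in none, including the 3 that never had 20 UMIs. All 3 comparisons come from the same pair of libraries, so they do not count as repeats.

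In Saa3-led fibroblasts, the inflammatory fibroblasts of day 5 marked by acute-phase and chemokine genes, the comparison by day rests on 31 cells at day 0. Saa3 itself was found in 3 of these 31 cells, with 79 of its 97 UMIs in 1 cell, and in 33.9% of the day 5 cells. The 10 markers of the class summed to 1189 CPM at day 0 and 7790 CPM at day 5. Whether the day 0 cells are of the same kind was not tested. Of 34 members with enough UMIs, 7 were at least 1.5-fold higher and 11 lower, beside 17.0% higher and 21.1% lower of 12282 genes. The higher members were Ifit1, Ifit2, Oasl2, Bst2, Irf7, Ifi47 and Cxcl10, and the lower ones Ifit3, Rsad2, Rtp4, Ifih1, Zbp1, Cmpk2, Usp18, Irf8, Gbp7, Iigp1 and Cxcl9. The counting interval excluded 1 for 6 of these 18. Cxcl10 had 996 UMIs at day 5 and 2 at day 0 (7.90, 2.18 to 65.3), Ifit1 425 and 1 (6.74, 1.20 to 267), and Bst2 1719 and 14 (1.95, 1.16 to 3.57). These did not hold under every alternative: the log2 ratio of Cxcl10 was 2.98 and turned to −0.63 under the looser cell filter, that of Ifit1 was 2.75 and came to 0.21 with cells picked by Saa3 UMIs, and that of Bst2 was 0.96 and came to −0.00040 with the highest doublet scores removed. Ifi47, Irf7, Oasl2, Ifit3, Rsad2, Rtp4, Zbp1 and Iigp1 also changed sign in this class under at least 1 alternative. Irf8 had 107 UMIs at day 5 and 6 at day 0 (3.54-fold lower), Gbp7 439 and 15 (2.15-fold lower), and Cxcl9 38 and 4 (6.64-fold lower), where the 4 day 0 UMIs lay in 1 cell. The remaining members named had between 1 and 15 UMIs at day 0, and their intervals included 1. Scaling by library factors moved the median of all genes in this class by 0.11 on the log2 scale. With cells picked by Saa3 UMIs in place of clusters, 2 members were higher, and with the highest doublet scores removed 3.

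Within the day 5 library, where the Saa3-led class had its 1384 cells, it was compared with the other Pdgfra fibroblasts pooled over their clusters. Of 23 type I members 7 were at least 1.5-fold higher and 3 lower, and of 12 gamma-type members 3 were higher and 1 lower, beside 10.8% higher and 26.7% lower of 14678 genes. Zbp1, a sensor of Z-form nucleic acid that can trigger necroptosis, stood at 21.1 CPM in Saa3-led and 8.39 CPM in other Pdgfra fibroblasts (2.51, 2.22 to 2.84). Irf8 stood at 4.90 and 1.75 CPM (2.80, 2.14 to 3.66), Gbp5 at 6.68 and 3.07 CPM (2.18, 1.75 to 2.70) and Ifi47 at 13.1 and 7.91 CPM (1.66, 1.44 to 1.92). Isg15, Bst2, Ifitm3 and Rtp4 were between 1.52-fold and 1.62-fold higher. Ifi44 (72 and 48 UMIs) and Oasl1 (19 and 16 UMIs) were higher by 4.78-fold and 3.79-fold on few molecules. Irf1 was lower, at 54.0 CPM in Saa3-led and 127 CPM in other Pdgfra fibroblasts, a difference of 2.34-fold. Lower too were Ifit2 (2.27-fold lower), the mitochondrial nucleotide kinase Cmpk2 (2.22-fold lower) and Ifit3 (1.78-fold lower). Cxcl10 was at 45.6 and 47.3 CPM (0.963, 0.896 to 1.03). Single clusters of the pool had higher day 5 levels than the Saa3-led class for some of these genes. They were cluster 9 for Irf8 (5.84 CPM) and Ifi47 (19.3 CPM), and cluster 7 for Gbp5 (11.8 CPM). Irf1 of the Saa3-led class lay inside the range of the clusters, 29.4 to 432 CPM. Zbp1 lay above the highest cluster, at 17.2 CPM. The class was defined by other genes of these same cells, so this is a description of the cluster.

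Endothelial cells had lower levels of most gamma-type genes at day 5. Of 21 type I members 10 were at least 1.5-fold lower at day 5 and 1, Ifi27, was higher; of 11 gamma-type members 8 were lower and 1, Irf8, was higher, beside 19.0% lower and 16.5% higher of 9313 genes. The median log2 ratio was −0.44 for the type I list, −1.70 for the gamma-type list and −0.05 for all genes. The gamma-type sum was 319 CPM at day 5 and 945 CPM at day 0 (0.337, 0.300 to 0.379). Iigp1 had 64.5 CPM in day 5 cells (83 UMIs in 30 cells) and 374 CPM in day 0 cells (394 UMIs in 69 cells), 5.80-fold lower. Gbp5 was 5.80-fold lower, Ifi47 4.68-fold, Igtp 3.87-fold, Gbp3 3.66-fold and Gbp2 3.14-fold. Among type I genes, Stat2, a subunit of the type I factor complex, counted 20 UMIs at day 5 against 49 at day 0, and Xaf1, which counters an inhibitor of apoptosis, 26 and 57. Irf1 was at 88.6 and 94.9 CPM, and Cxcl10 had 14 and 11 UMIs.

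The endothelial cells of the libraries also differed in other ways. All 5 endothelial markers were detected on both days, with a sum of 2276 CPM at day 5 and 2867 CPM at day 0. The 7 fibroblast markers summed to 10238 and 6259 CPM, 4 cycling markers to 225 and 0 CPM, 7 muscle markers to 921 and 2186 CPM, 5 leukocyte markers to 97.9 and 6.64 CPM with 4 of the 5 at 0 at day 0, and 6 neutrophil markers to 981 and 0 CPM. Much of the neutrophil signal lay in 1 cell, which held 320 of 619 UMIs of S100a8. Without the 8 day 5 cells with leukocyte UMIs, 19 members were lower and 1 higher, beside 19.8% lower and 15.3% higher of all genes, and the gamma-type sum ratio was 0.336. The gamma-type sum ratio was between 0.303 and 0.411, and the Iigp1 ratio between 0.162 and 0.207, under the other filters, doublet removal and clusterings run. Genes for antigen processing were lower as well, at 9 of 11, among them the immunoproteasome subunit gene Psmb9 (31.1 and 97.7 CPM) and the class I gene H2-K1 (316 and 744 CPM). Of further gamma-type genes 5 of 8 were lower and 2 higher, with Gbp4 at 18.6 CPM on day 5 against 121 CPM on day 0. The part of cell makeup in this difference was not tested.

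**Figure D3:**
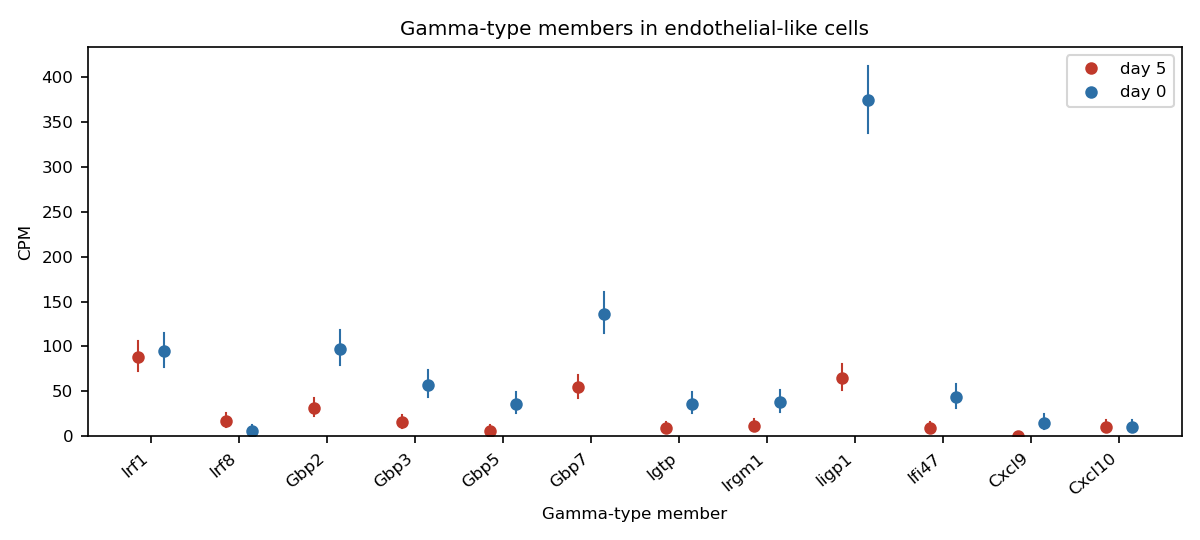
CPM of the gamma-type genes in endothelial cells, day 5 left of day 0 for each gene, with 95% counting intervals from 99 and 122 cells. Iigp1 has 64.5 CPM on day 5 against 374 CPM on day 0, and the Gbp and GTPase genes lie lower at day 5, while Irf1 and Cxcl10 are at similar levels.

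The interferon genes listed were nearly absent from the stromal libraries, which were sorted to leave out leukocytes. Of the Ifna genes only Ifna1, Ifna2, Ifna4 and Ifna5 were listed. Ifng had 1 UMI at day 5, and the 9 other ligand genes listed had 0 UMIs on both days. The 4 receptor genes for type I and gamma interferon were detected in every class. In other Pdgfra fibroblasts Ifngr1, the ligand-binding chain for interferon gamma, had 144 CPM in day 5 and 98.1 CPM in day 0 cells (1.46, 1.42 to 1.51), and in tenocytes it had 161 and 99.8 CPM (1.61, 1.47 to 1.77). In osteoblasts it had 130 CPM in day 5 and 140 CPM in day 0 cells (0.928, 0.841 to 1.02). Ifngr2, Ifnar1 and Ifnar2 were within 1.5-fold in these 3 classes, for example Ifnar2 at 114 and 124 CPM in other Pdgfra fibroblasts. None of 7 signalling genes was 1.5-fold different in other Pdgfra fibroblasts. In tenocytes Tmem173, which encodes the DNA-sensing adaptor STING, had 17.6 CPM on day 5 against 8.05 CPM on day 0 (2.19, 1.61 to 3.02).

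Interferon targets outside the member set were counted the same way. In other Pdgfra fibroblasts, where 9.54% of all genes were at least 1.5-fold higher at day 5, 4 of 9 further gamma-type genes were and none was lower, namely Irgm2, F830016B08Rik, Upp1 and the T cell inhibitor gene Cd274 (246 and 83 UMIs, 2.37-fold, 1.84 to 3.08). Of 46 further interferon-stimulated genes 4 were higher, a share near that of all genes, namely Ifitm1 (15.2 and 5.81 CPM, 2.61-fold), Ifit3b (1.74-fold), the exonuclease gene Isg20 (1.63-fold) and Ifi207 (75.5 and 50.2 CPM). None of 12 antigen processing genes differed by 1.5-fold. In tenocytes 11 of 36 further interferon-stimulated genes were higher and none lower, beside 9.49% and 7.31% of all genes. In osteoblasts 9 of 40 were higher and 1, Ifi27l2a, lower, beside 7.79% and 5.36%.

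In the myeloid library at day 9, interferon genes were unevenly spread over the classes, and many type I members were higher in monocytes than in macrophages. The classes were macrophages (2513 cells, 5 clusters), monocytes (861), conventional dendritic cells (582), osteoclast lineage cells (401), NK and T cells (269), cycling cells (200), migratory dendritic cells (104), a red-cell cluster (90) and neutrophils (83), with 801 cells unnamed. T cells, and neutrophils that carry Ly6G, lie outside the CD11b+Ly6G- gate as labelled. The neutrophil cluster had Camp, Ngp, Elane and Mpo among its leading genes, and 1 macrophage cluster had class II genes of the dendritic list among its own. Csf1r of the macrophage list had UMIs in 82.7% of all myeloid cells. It was also found in 73 of the 90 cells of the red-cell cluster, 56.5% of NK and T cells and 51.8% of neutrophils. Levels in these 3 classes can therefore include RNA of other myeloid cells, and its part was not tested. Of 26 type I members 13 were at least 1.5-fold higher in monocytes than in macrophages and 1 lower, and of 12 gamma-type members 6 were higher and 2 lower. Over 11452 genes 11.8% were that much higher and 31.6% lower, and the median log2 ratio was −0.24 for all genes, against 0.58 for the type I and 0.56 for the gamma-type list. Library scaling moved all ratios of this pair by 0.17 to 0.18 on the log2 scale, and the alternative with the larger shift gave 20 type I members higher.

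Isg15 stood at 164 CPM in monocytes (154 to 175) and 57.5 CPM in macrophages (53.9 to 61.4), a ratio of 2.85 (2.60 to 3.12). Ifitm3 stood at 2684 CPM in monocytes and 550 CPM in macrophages (4.88, 4.75 to 5.01), Irf7 at 118 and 44.4 CPM (2.65, 2.38 to 2.95), Zbp1 at 122 and 41.5 CPM (2.93, 2.63 to 3.27) and Oas3 at 48.0 and 17.7 CPM (2.72, 2.29 to 3.22). The oligoadenylate synthetase genes, too sparse to compare in the stroma, could be compared here. Rsad2, which encodes the antiviral radical enzyme viperin, had 535 UMIs in 101 monocytes, 144 of them in 1 cell, and a ratio of 2.46. Of gamma-type genes, Cxcl10 stood at 166 CPM in monocytes and 63.7 CPM in macrophages (2.61, 2.39 to 2.86), Gbp5 at 9.71 and 3.63 CPM (2.67, 1.81 to 3.93) and Irf1 at 59.1 and 35.0 CPM (1.69, 1.47 to 1.94). Members that were lower in monocytes were Ifi27, at 24.7 and 80.0 CPM (3.24-fold lower), Iigp1, with 2 UMIs in monocytes and 75 in macrophages, with 21 of these 75 in 1 cell, and Cxcl9, with 2 and 21 UMIs.

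Other classes led for single members. Irf8, which directs dendritic cell development and holds back osteoclasts, stood at 622 CPM in migratory dendritic cells and 8.29 CPM in osteoclast lineage cells, 75.0-fold apart and the widest span among members whose lowest class had more than 3 UMIs. Gbp2 and Gbp5 were also highest in migratory dendritic cells, at 50.4 and 56.4 CPM, and Gbp7 in NK and T cells, at 81.9 CPM. Osteoclast lineage cells had the lowest level of Cxcl10 (4.23 CPM, 39.4-fold under monocytes), Gbp2 (1.52 CPM), Rsad2 (2.87 CPM), Oasl2 (3.38 CPM) and Usp18 (2.03 CPM), and the highest of Ifi27, at 233 CPM, 9.45-fold over monocytes. Ifit1 was at 43.4 CPM in neutrophils (32.7 to 56.5) and 42.0 CPM in migratory dendritic cells (29.2 to 58.4), where 23 of 35 UMIs lay in 1 cell, and at 32.1 CPM in monocytes (27.6 to 37.1), and these intervals overlap. It was at 2.60 CPM in cycling cells. Monocytes were highest, and osteoclast lineage cells lowest, for Oasl1 (22.6 and 1.18 CPM), Oas3 (48.0 and 3.64 CPM), Stat2 (37.4 and 5.92 CPM) and Ifitm3 (358 CPM in osteoclast lineage cells). Ifit2 and Ifit3 had 3 and 2 UMIs in the osteoclast lineage, against tops of 16.8 CPM in migratory and 15.7 CPM in conventional dendritic cells. Cmpk2 spanned 22.1 CPM in neutrophils to 1.69 CPM in osteoclast lineage cells, and Gbp3 30.2 CPM in NK and T cells to 3.16 CPM in neutrophils. Monocytes were highest for Ifi47 (48.0 CPM), Oas2 (34.6 CPM) and Rtp4 (61.1 CPM). Isg15 spanned 173 CPM in migratory dendritic cells, close to monocytes, to 32.3 CPM in cycling cells. Whether these ends differ from the next class was not tested. Members whose classes lay within 5-fold of each other included Bst2 (highest in macrophages, at 208 CPM), Oas1a, Irf9, Xaf1, Parp14, Ifi35, Ifih1, Ddx58, Irf1, Igtp and Irgm1. The counting interval of the highest class overlapped that of another class for Gbp2, Oasl1, Stat2, Ifit2 and Ifit3, and the interval of the lowest class that of another for Gbp2, Rsad2, Usp18, Oasl1, Oas3, Stat2, Ifitm3, Ifit1, Ifit2 and Ifit3, so these ends of the order are not set. Of the Cxcl9 UMIs, 46 of 101 came from 1 cell of the red-cell cluster, so Cxcl9 has no order between classes.

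**Figure D4:**
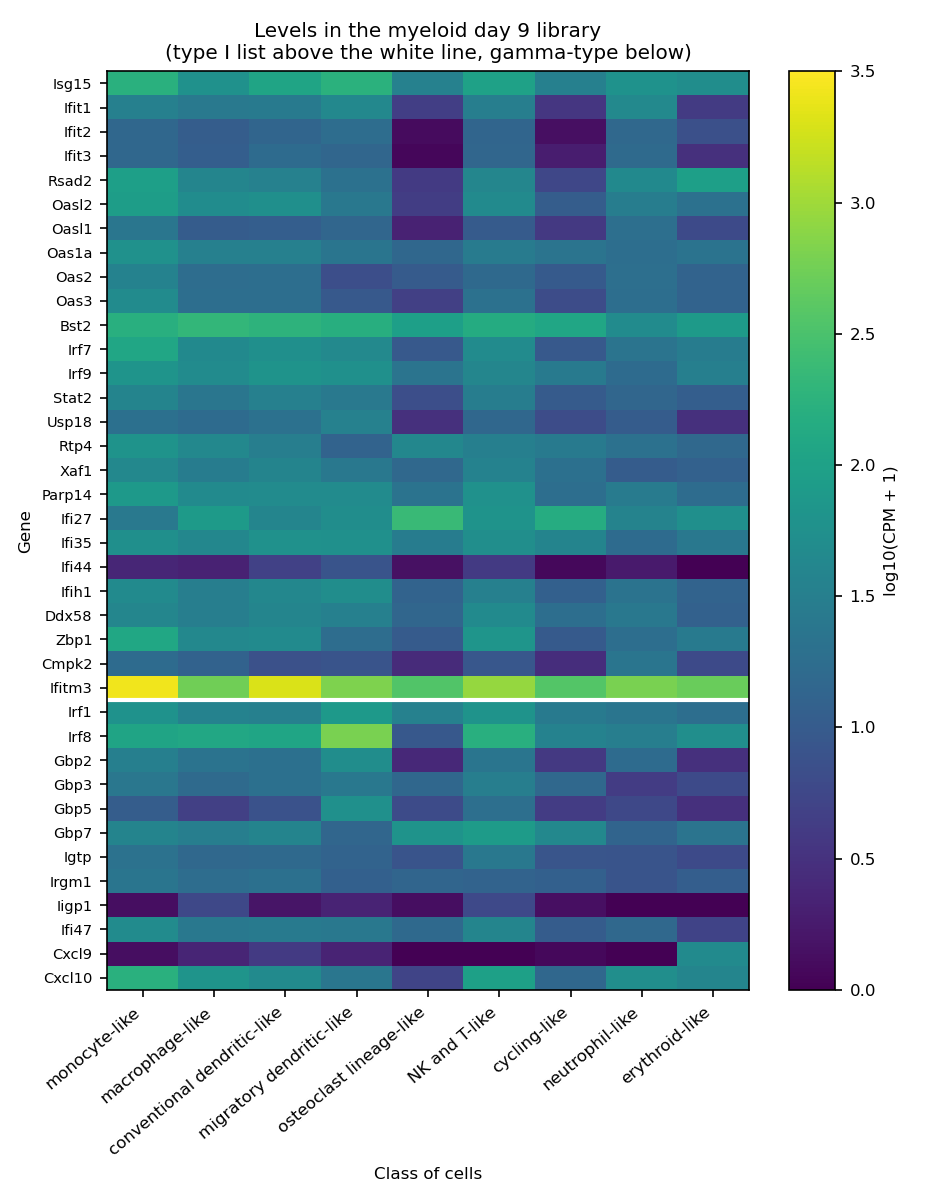
Heat map of log10(CPM + 1) for the 38 measured genes, in rows, over the classes of the myeloid day 9 library, in columns, with the type I list above the white line and the gamma-type list below it. The monocyte column is brighter than the macrophage column for genes such as Isg15 (164 and 57.5 CPM) and Cxcl10 (166 and 63.7 CPM), and the osteoclast lineage column is dark for Cxcl10 and Irf8 and bright for Ifi27.

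Interferon ligands were detected in the myeloid library in few cells. Ifnb1, the gene of interferon beta, had 85 UMIs in 39 of 5945 cells, with 41 UMIs in monocytes (7.24 CPM) and 30 in macrophages (1.88 CPM), 13 of these 30 in 1 cell. Ifng had 73 UMIs, of which 72 lay in 29 of the 269 NK and T cells, at 23.4 CPM (18.3 to 29.5). The 8 other ligand genes listed had 0 UMIs among all 5945 cells, where 3 counts, the limit set by a count of 0, come to 0.0489 CPM. Ifngr1 stood at 287 CPM in monocytes, 233 CPM in macrophages and 34.7 CPM in osteoclast lineage cells. Of 54 further interferon-stimulated genes 30 were at least 1.5-fold higher in monocytes than in macrophages and 2 lower, among them Slfn4 (56.3 and 8.70 CPM, 6.47-fold), Ms4a4c (337 and 61.3 CPM, 5.49-fold) and Isg20 (30.2 and 5.76 CPM, 5.24-fold).

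Cells that carried several type I genes at once were counted with each cell thinned to 2000 UMIs, over 22 type I genes. In monocytes 26.2% of cells (23.2 to 29.4, Clopper-Pearson) had UMIs of 3 or more of them, in neutrophils 17.1% (9.43 to 27.5), in conventional dendritic cells 15.5% (12.6 to 18.7), in macrophages 11.4% (10.1 to 12.8) and in osteoclast lineage cells 2.75% (1.38 to 4.87). The intervals of monocytes and macrophages did not overlap, and those of neutrophils and conventional dendritic cells did. Among macrophage clusters the share ranged from 4.84% in cluster 8 (2.24 to 8.99) to 16.2% in cluster 0 (13.5 to 19.1). The interval of cluster 0 overlapped that of conventional dendritic cells. Over the whole myeloid library it was 12.5%, or 694 of 5571 cells, and 44.9% without thinning. In every stromal class compared the intervals of the days overlapped, those of endothelial cells included. The share was 2.47% at day 5 (2.12 to 2.86) and 2.27% at day 0 (1.88 to 2.71) in other Pdgfra fibroblasts. In osteoblasts it was 1.63% (0.817 to 2.90) and 1.89% (0.947 to 3.36). In tenocytes it was 1.09% (12 of 1106 cells, 0.562 to 1.89) at day 5 and 0.448% (3 of 670 cells, 0.0924 to 1.30) at day 0. Saa3-led fibroblasts had 3.07% at day 5 (2.22 to 4.13) and 6.45% at day 0, which rests on 2 of 31 cells (0.791 to 21.4). Endothelial cells had 7.53% at day 5 (3.08 to 14.9) and 19.0% at day 0 (12.3 to 27.3). Free RNA can give such UMIs in any droplet, and no class here should lack these genes, so its part was not tested.

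**Figure D5:**
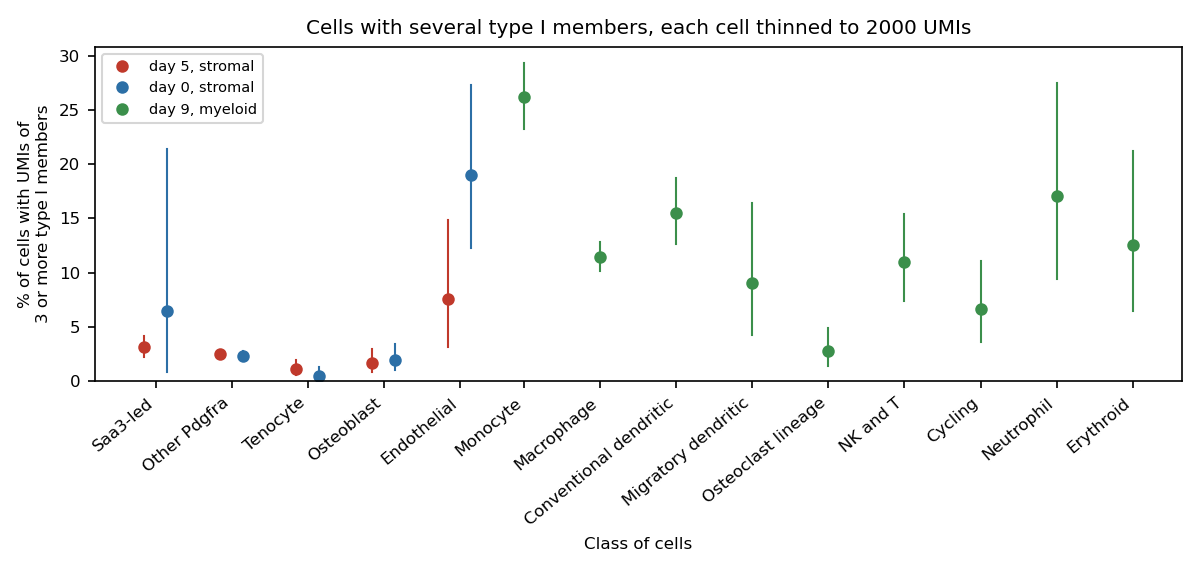
Share of cells with UMIs of 3 or more of 22 type I genes after thinning each cell to 2000 UMIs, by class, with day 5 left of day 0 for stromal classes and 95% Clopper-Pearson intervals. Monocytes are highest at 26.2%, and the stromal classes lie under 4% except endothelial cells and the 31 Saa3-led cells of day 0.

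A small number of myeloid cells carried many type I genes. After thinning, 154 of 5571 cells had 6 or more, among them 61 macrophages (2.68% of the macrophages), 46 monocytes (5.61%), 21 conventional dendritic cells (3.74%) and 8 of 76 neutrophils (10.5%). These cells were picked by type I genes, and several gamma-type genes also answer type I interferon. Their gamma-type levels are therefore not independent of the picking and only describe the cells. Gbp2 stood at 180 CPM in the 154 cells and 10.7 CPM in the rest, Cxcl10 at 605 and 37.4 CPM, Ifi47 at 237 and 17.4 CPM, and Gbp5 at 55.0 and 5.41 CPM. These had the highest ratios of the 12. Irf1 (58.6 and 36.4 CPM) and Irf8 (147 and 78.8 CPM) differed least, and the other members had ratios between 3.84 for Gbp7 and 8.20 for Cxcl9. Monocytes made up 29.9% of the 154 cells and 14.5% of all cells kept, and the part of class makeup was not tested. The median depth was 5675.5 UMIs in the 154 cells and 7210 in the rest. Ifnb1 stood at 7.33 CPM in these cells (8 UMIs) and 1.24 CPM in the rest (74 UMIs), a ratio of 5.91 (2.46 to 12.3).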

How the data were processed

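The authors deposited filtered tables of UMI counts per gene and cell for 3 libraries of 10x 3' v3.1 chemistry. Per the file headers, Cell Ranger 6.0.1 made them; the 10x mm10 reference is given per the labels' protocols. Seurat 4.3.0 is named in the submitters' processing notes without a role. The values are whole and were not normalized. The genes and lists were chosen with earlier results of these data known.

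Cells were clustered in scanpy 1.11.5 (2000 variable genes without the listed interferon genes, 30 components, 15 neighbours, Leiden resolution 1.0), the stromal libraries together without integration. Scrublet called 0 cells at day 5, 2 at day 0 and 0 in the myeloid library, so it had not worked; removing the 1064, 456 and 371 cells of highest score was an alternative. Barcodes shared by libraries numbered 14 to 25. UMIs were summed per class. Intervals were exact (Poisson for CPM, conditional binomial for ratios), from scipy 1.17.1, and were tested on simulated data. A gene at 0 UMIs was bounded by 3 counts. Named were all members that differed at least 1.5-fold by day or 5-fold between myeloid classes, and the most abundant of each role. Alternatives were cell filters, clusterings, UMI gates, scaling by edgeR 4.0.16 and DESeq2 1.42.0, thinning, means per cell, leukocyte-free cells and no count minimum.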

Additional observations from a re-analysis of the deposited data

Results flagged for a closer look

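Several genes lay at least 1.5-fold up at day 5 in 1 stromal class and at least 1.5-fold down in another, on the log2 ratio of day 5 over day 0. None of these differences between classes was tested, since each rests on the same pair of libraries, on 99 and 122 endothelial cells, or on 31 Saa3-led cells at day 0. Immunity-related GTPases stood out: Igtp was 0.63 in other Pdgfra fibroblasts, 0.97 in tenocytes and 0.69 in osteoblasts, against −1.95 in endothelial cells. Ifi47 was 0.60 in Saa3-led fibroblasts, 0.70 in other Pdgfra fibroblasts and 2.67 in osteoblasts, against −2.23 in endothelial cells. Iigp1 was 2.07 in tenocytes and 1.10 in osteoblasts, against −0.62 in Saa3-led fibroblasts and −2.54 in endothelial cells. Among the GTPases of the Gbp family, Gbp2 was 0.68 in osteoblasts and −1.65 in endothelial cells, and Gbp5 was 1.99 in tenocytes and −2.54 in endothelial cells.

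Ifit1 was 2.75 in Saa3-led fibroblasts and 2.05 in tenocytes, against −1.34 in endothelial cells. Ifit3 was 1.10 in tenocytes, against −0.71 in Saa3-led fibroblasts and −1.14 in endothelial cells. The factors Irf7 (0.89 in Saa3-led fibroblasts, 1.05 in tenocytes, −1.25 in endothelial cells) and Irf9 (0.65 in tenocytes, −0.67 in endothelial cells) split the same way. Irf8 was −1.82 in Saa3-led fibroblasts and 1.59 in endothelial cells. Usp18 was −0.69 in Saa3-led fibroblasts and 0.99 in tenocytes, and Cxcl9 −2.73 in Saa3-led fibroblasts, 1.10 in other Pdgfra fibroblasts and 4.18 in osteoblasts. In Saa3-led fibroblasts the values of Ifi47, Irf7, Ifit3 and Iigp1 changed sign under at least 1 alternative, as did Usp18 in tenocytes with the highest doublet scores removed, so their directions there are not settled.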

How the results depend on the processing

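Among counts of members past 1.5-fold, 97 alternative values stayed within 1.5 times of the reported count and 35 did not; among single genes and sums 591 moved by less than their interval, 89 by more, and 17 changed sign. In other Pdgfra fibroblasts the 5 higher members were 3 with thinned cells or clusters weighted equally, 8 without clusters 7, 10 and 13, and 9 with the unnamed and cycling clusters added. The 1 lower member was 0 under the looser and stricter filters, doublet removal, resolution 2.0, all variable genes, UMI gates, thinning and the added clusters. In tenocytes 7 of 13 were higher after doublet removal, and 1 was lower with no minimum. In osteoblasts the 8 higher were 4 after doublet removal and 5 at resolution 2.0, and the 0 lower were 4 by cell means, 3 under the looser filter or resolution 2.0, 2 with all variable genes or thinning, and 1 under the stricter filter, doublet removal, DESeq2 scaling, leukocyte-free cells or no minimum. In Saa3-led fibroblasts the 7 higher were 3 after doublet removal and 2 by UMI gates, and the 11 lower were 6 and 7 under the looser and stricter filters, 4 at resolution 0.5 and 5 with all variable genes. The 13 type I members higher in monocytes than macrophages were 21 under the looser filter, 23 with all variable genes and 20 with DESeq2 scaling.

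Changes of sign, as log2 ratios, were in Saa3-led fibroblasts Ifi47 (−0.0061) and Cxcl10 (−0.63) under the looser filter, Rtp4 (0.093) under the stricter one, Ifit3 (0.39), Bst2 (−0.00040), Irf7 (−0.55) and Ifi47 (−0.78) after doublet removal, Rsad2 (0.36) and Rtp4 (0.010) at resolution 0.5, Ifit3 (0.24) and Zbp1 (0.045) with all variable genes, Oasl2 (−0.19), Rtp4 (0.37) and Iigp1 (0.40) by UMI gates, and Irf7 (−1.71) with thinning. Usp18 in tenocytes turned to −0.034 after doublet removal, and Oasl1 in other Pdgfra fibroblasts to 0.20 by UMI gates. The cause was not tested. The added and left-out clusters, the weighting and the endothelial alternatives were chosen after seeing the data. No paired analysis was possible because each group holds 1 library. With 1 library per group, and genes at a few UMIs per class, differences under the interval of a ratio could not be detected.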
